A study of Mus musculus with 8 samples.

Results

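The cells described here are the blood cells of irradiated tumor-bearing mice that carried 1 of 2 genotype hashtags in a single droplet library. They were read as Ythdf2 conditional knockout (cKO) or wild type (WT) from antibody-bound oligonucleotide tags, B0302 for cKO and B0301 for WT. Of 9291 barcodes with at least 500 gene UMIs (unique molecular identifiers, counted transcript molecules), 9237 also had at least 200 genes, at most 25% mitochondrial UMIs and at least 20 hashtag UMIs. A barcode was labelled cKO where B0302 reached 4 times B0301, and WT where B0301 was at least as high as B0302. This gave 3936 cKO-labelled and 4900 WT-labelled cells, 8836 of the 30281 cells labelled in the same way over the whole series, and left 401 barcodes with a ratio between these limits unlabelled. The lowest B0302 to B0301 ratio among cKO-labelled cells was 4.22, that of the unlabelled barcodes ran from 1.001 to 3.98, and the highest among WT-labelled cells was 0.999.

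The WT pool came from Ythdf2 fl/fl mice without Cre, and the cKO pool from Lyz-Cre Ythdf2 fl/fl mice, in which Cre is expressed from the Lyz2 locus of myeloid cells. Both carried subcutaneous MC38 colon carcinomas that received 1 local dose of 20 Gy, and cells were taken 3 days later. The study used C57BL/6J mice of both sexes aged 8 to 10 weeks, and pooled 5 mice per genotype, so that each label is 1 sample without replicates. Cells were sorted as CD45+CD11b+Ly6Chi, a phenotype under which the study sought monocytic suppressor cells, and made into a 10x Genomics 3′ library.

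YTHDF2 binds N6-methyladenosine (m6A), a methyl mark on messenger RNA, and brings bound transcripts to the CCR4-NOT deadenylase complex for decay. Its loss is therefore studied through transcripts that last longer, and the study asked how it acts on NF-κB, the transcription factor family behind many inflammatory genes. Classical Ly6Chi monocytes leave the bone marrow for inflamed tissue, nonclassical monocytes patrol vessel walls, and neutrophils, which carry Ly6G and less Ly6C, release stored granule proteins and chemokines.

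Levels are given as UMIs per 1000000 gene UMIs of the summed cells (CPM) and differences as log2 ratios of cKO-labelled over WT-labelled cells, after adding 1 UMI per label on average. Brackets hold 95% intervals that cover counting error only (Poisson for levels, exact binomial for ratios), and no test of genotype was possible with 1 pool per label. A gene was called past the limit at a log2 ratio of at least 1 in either direction, among genes with at least 100 UMIs in both labels together. The sums were 24947262 UMIs for WT and 20342177 for cKO, and the median cell had 2883 and 2854 UMIs, so depth was close between the labels.

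The genes that should mark the genotypes were examined first. Lyz2, the lysozyme gene that carries the Cre, stood at 13212 CPM in WT-labelled and 87.0 in cKO-labelled cells, a log2 ratio of -7.25 [-7.31, -7.18]. Ythdf2 itself went against the label. It stood at 34.8 CPM [32.6, 37.2] in WT-labelled cells and at 335 [327, 343] in cKO-labelled cells, a log2 ratio of 3.26 [3.16, 3.37]. Reads of this library come from the 3′ ends of transcripts, so they need not cover the deleted exons and do not check the deletion. Every direction below is therefore that of the hashtag labels, and the labels rest on the hashtags and on Lyz2.

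Ythdf2 lies at chr4:132184912-132212303 on the minus strand of mm10, and Lyz2 at chr10:117277331-117282321, also on the minus strand. The neighbouring lysozyme gene Lyz1, at chr10:117287797-117292868, went the opposite way to Lyz2. It stood at 5.37 CPM in WT-labelled and 244 in cKO-labelled cells, a log2 ratio of 5.49 [5.26, 5.76], and its UMIs came from 74 and 194 barcodes. Of the 90-base windows of the annotated Lyz1 transcript, 3.75% were found unchanged in the Lyz2 transcript, so most reads can be told apart between them. The genes near either locus did not share these differences. The 47 other measured genes within 2 Mb of Ythdf2 ran from -0.25 to 0.62 with a median of 0.06, and the 18 other genes within 2 Mb of Lyz2 ran from -0.19 to 0.59 with a median of 0.08.

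Of the label genes, Lyz2 was lower in each step toward B0302, while Ythdf2 and Lyz1 differed between the ends without a steady order. In the 4682 barcodes with the least B0302, Ythdf2 was at 33.3 and Lyz2 at 13506 CPM, and in the 3367 barcodes with the most B0302 they were at 347 and 81.4. The 401 unlabelled barcodes lay between, with 195 CPM of Ythdf2 and 5477 of Lyz2, and had a median of 5649 UMIs, more than either label. The WT label also held 92 barcodes with B0301 less than 4 times B0302. These had a median of 8365 UMIs, 79.5 CPM of Ythdf2 and 7350 of Lyz2. Between 24 and 33 of the 8836 barcodes occurred again with at least 500 UMIs in each of the other 3 matrices.

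**Figure D1:**
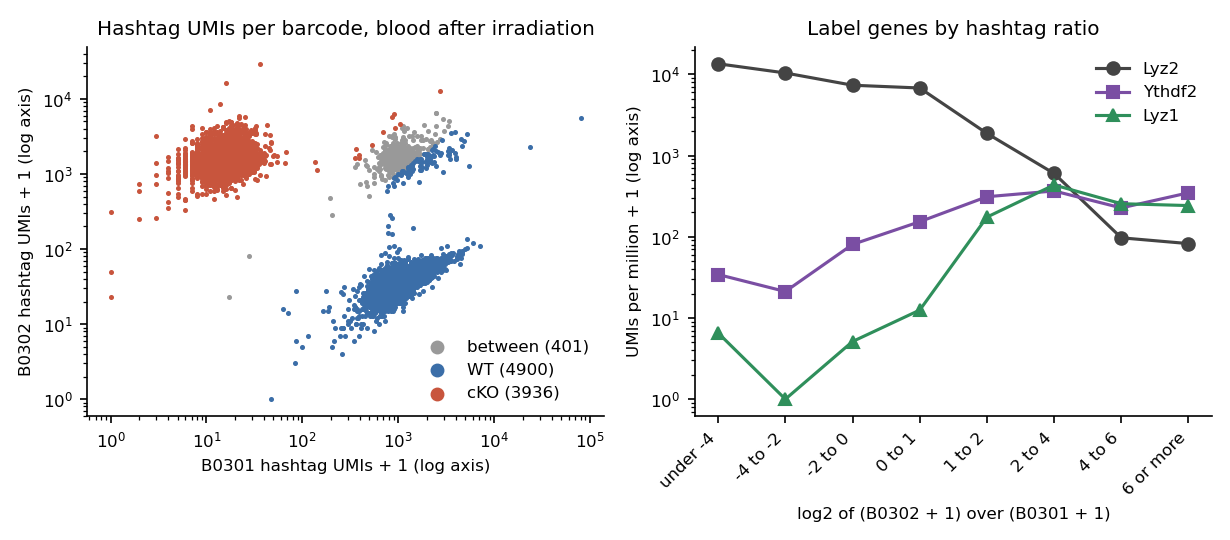
Left, B0301 against B0302 hashtag UMIs of each barcode on log axes, with 4900 WT-labelled cells in blue, 3936 cKO-labelled in red and 401 unlabelled in grey. Right, CPM of Lyz2, Ythdf2 and Lyz1, plus 1 (log axis), in barcodes grouped by hashtag ratio, where Lyz2 is lower and Ythdf2 and Lyz1 are higher at the B0302 end than at the B0301 end.

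The difference in Ythdf2 was of like size in the myeloid classes. Clusters were named from marker genes, with the label genes left out of the clustering (below). The log2 ratio of Ythdf2 was 3.25 [3.03, 3.50] in mature neutrophil-like cells, 3.28 [3.12, 3.45] in classical monocyte-like cells and 3.25 [3.06, 3.47] in nonclassical monocyte-like cells. In NK cell-like cells, a lymphoid class, it was 1.72 [0.97, 2.61], on 24 UMIs in WT-labelled and 32 in cKO-labelled cells. The WT-labelled NK cell-like cells also held 1532 CPM of Lyz2, against 66.1 in the cKO-labelled ones.

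Outside these genes the labels were close. Of 9779 genes with at least 100 UMIs, 17 were past the limit on the higher side (0.174% of the genes) and 51 on the lower side (0.522%). The 17 include Ythdf2 and Lyz1, and the 51 include Lyz2. The median log2 ratio of all genes was 0.05, with quartiles of -0.06 and 0.15, and 62.1% of the genes lay above 0 and 37.9% below.

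The largest ratios on the higher side, ahead of Lyz1, were set by 1 cell. Jchain, the joining chain of secreted antibodies, had 505 UMIs in cKO-labelled cells, and 502 of them came from 1 barcode of the B cell-like cluster. The same barcode held 1808 of 1811 UMIs of Igha, the heavy chain of IgA, and 4456 of 4808 UMIs of Igkc, the kappa light chain. It also held 56 of 68 UMIs of Mzb1, a chaperone of antibody-secreting cells. With the top barcode of each label left out, the log2 ratio of Igkc was -0.55 in place of 2.94, and Jchain kept 3 UMIs in cKO-labelled cells and 0 in WT-labelled ones, for which no ratio is given.

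Some of the lowest ratios were also those of single cells. Of 863 UMIs of Hbb-bt, a beta globin gene, in WT-labelled cells, 838 came from 1 barcode, and the log2 ratio was -0.33 without the top barcodes in place of -3.88. Mpo and Elane encode myeloperoxidase and neutrophil elastase, enzymes of the primary granules that form early in neutrophil development. A single WT-labelled barcode of the immature neutrophil-like cluster held 131 of 137 UMIs of Mpo and 407 of 469 of Elane, and without the top barcodes their ratios were 0.62 and 0.67. In all, 60 of the 68 genes were still past the limit in the same direction without the top barcodes, a count that includes Jchain on its 3 remaining UMIs.

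**Figure D2:**
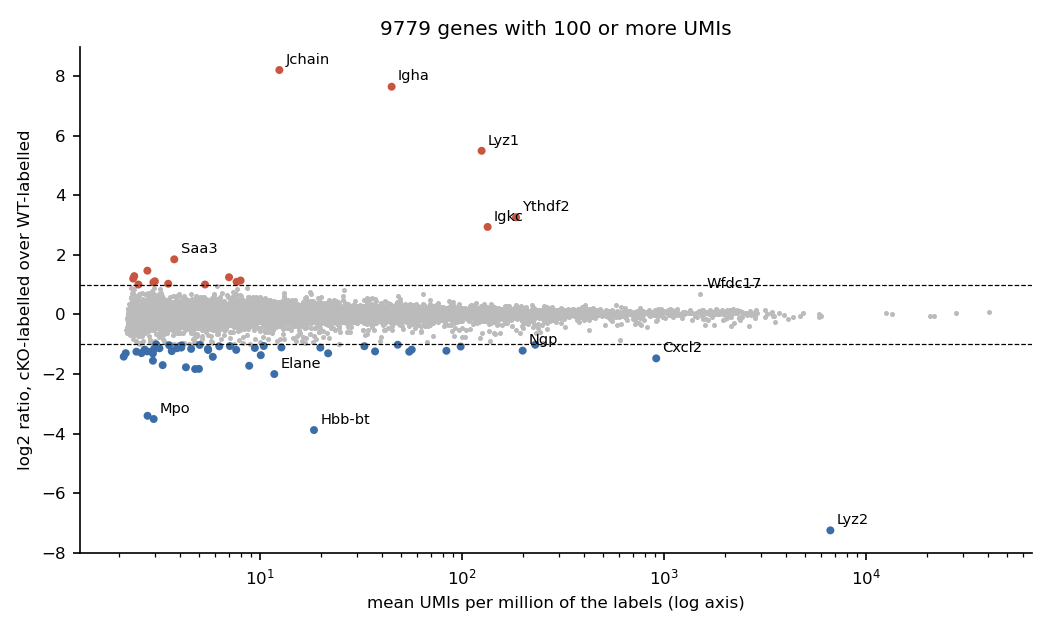
Log2 ratio of cKO-labelled over WT-labelled cells against the mean CPM of the labels (log axis) for 9779 genes. Dashed lines mark the limit of 1, red points the 17 genes higher and blue points the 51 genes lower. Jchain, Igha, Igkc, Mpo, Elane and Hbb-bt are among the genes whose UMIs in 1 label came mostly from 1 barcode.

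Apart from Lyz2, the most abundant gene on the lower side was a target of NF-κB. Cxcl2, a chemokine that attracts neutrophils through the receptor CXCR2, stood at 1343 CPM [1328, 1357] in WT-labelled and at 484 [474, 493] in cKO-labelled cells, a log2 ratio of -1.47 [-1.51, -1.44]. These UMIs were spread over 2723 WT-labelled and 1523 cKO-labelled barcodes, and the top barcode held at most 0.722% of them. Tnfaip3, which encodes the ubiquitin-editing NF-κB inhibitor A20, was at 78.0 and 34.4 CPM, a log2 ratio of -1.18 [-1.31, -1.06]. Cxcl3, a close relative of Cxcl2, had 103 and 35 UMIs and a log2 ratio of -1.24 [-1.86, -0.70].

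Of the 23 measured members of a list of NF-κB targets, 17 were lower and 6 higher in cKO-labelled cells, and 3 were past the limit on the lower side. The list's median was -0.26, against 0.05 over all genes. Below the limit, Bcl2a1b, a survival factor of the BCL2 family, was at -0.90, and Nfkbia, the inhibitor IκBα that NF-κB induces as its own brake, was at -0.85 with 778 and 432 CPM. Il1b, the interleukin-1β gene and the most abundant member, was at -0.26 with 3855 and 3230 CPM. The 6 members on the higher side, Relb, Icam1, Sod2, Nfkb1, Tnip1 and Ccl4, lay between 0.06 and 0.23.

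The promoters of Cxcl2, Cxcl3 and Tnfaip3 are shown because these 3 list members were past the limit and each held a sequence of NF-κB site type. The motif searched was GGG, any 2 bases and then TTTCC, on either strand (GGAAA, any 2 bases and then CCC on the other), in RefSeq windows of 300 bases on GRCm38.p6 from 250 bases before to 50 after the transcription start, printed 5′ to 3′ on the gene's strand with matches in capitals. The windows are chr5:90903649-90903948 on the plus strand for Cxcl2, chr5:90785851-90786150 on the plus strand for Cxcl3 and chr10:19015361-19015660 on the minus strand for Tnfaip3, the one of its 2 windows that held a match.
Cxcl2: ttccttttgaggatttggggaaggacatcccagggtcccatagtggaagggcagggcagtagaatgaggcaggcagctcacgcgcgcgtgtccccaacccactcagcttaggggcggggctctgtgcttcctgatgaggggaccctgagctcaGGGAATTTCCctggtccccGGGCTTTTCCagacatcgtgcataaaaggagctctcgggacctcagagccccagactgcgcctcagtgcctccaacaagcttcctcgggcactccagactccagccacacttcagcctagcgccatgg
Cxcl3: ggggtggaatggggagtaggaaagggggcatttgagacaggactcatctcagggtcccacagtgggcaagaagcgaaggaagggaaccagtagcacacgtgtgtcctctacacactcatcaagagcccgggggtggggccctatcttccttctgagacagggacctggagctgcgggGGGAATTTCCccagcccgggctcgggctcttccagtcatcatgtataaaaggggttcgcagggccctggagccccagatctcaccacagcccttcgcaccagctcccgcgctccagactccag
Tnfaip3: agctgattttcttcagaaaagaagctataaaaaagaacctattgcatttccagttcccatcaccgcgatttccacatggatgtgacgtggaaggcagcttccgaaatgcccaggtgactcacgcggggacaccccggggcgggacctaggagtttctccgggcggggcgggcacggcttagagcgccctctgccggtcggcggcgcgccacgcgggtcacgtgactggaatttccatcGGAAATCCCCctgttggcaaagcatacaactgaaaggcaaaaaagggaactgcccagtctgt
The motif occurred in 1.63% of all 32851 promoter windows, and in 170 of the 7779 measured genes with a window (2.19%). Among the 19 measured NF-κB targets with a window, 6 had it (Nfkbia, Tnfaip3, Cxcl2, Cxcl3, Nfkb2 and Rel), and among the 37 genes on the lower side with a window, these same 3 did. The list was chosen as NF-κB targets, so matches among its members are not independent of that choice, and no enrichment was tested. A match is a description of the letters and not of a bound site.

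Several further genes were past the limit on the lower side, and no theme among them was tested. Ccrl2, a surface receptor that binds chemerin and is induced by inflammatory stimuli, was at 133 CPM in WT-labelled and 63.2 in cKO-labelled cells, a log2 ratio of -1.08 [-1.17, -0.98]. Thbs1, the matrix protein thrombospondin 1, was at 117 and 50.2 (log2 ratio -1.22 [-1.32, -1.12]). Tgm2, transglutaminase 2, was at 44.4 and 21.2 (log2 ratio -1.06 [-1.23, -0.90]). Maff, a small bZIP transcription factor, had a log2 ratio of -1.11 on 139 and 52 UMIs. Rnf125, a ubiquitin ligase that acts on RIG-I-like receptors, had one of -1.72 [-2.10, -1.38] on 338 and 83 UMIs.

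Immediate-early genes, which cells switch on within minutes of a stimulus, were lower in cKO-labelled cells in 21 of 22 measured members, with a median of -0.34 and none past the limit. Nr4a2 was at -0.96, the stress factor Atf3 at -0.61 with 234 and 153 CPM, and Egr1 at -0.51 with 496 and 350. Fos, the most abundant of those named, was at -0.17 with 2509 and 2225 CPM. Klf4 was the 1 member on the higher side, at 0.05. Of 11 heat shock genes, 8 were lower, with a median of -0.19, and Hspa1a, an inducible HSP70, was at -0.79.

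Interferon response genes were lower in 23 of 38 measured members, where 37.9% of all genes lay below 0. Their median was -0.03 against 0.05 over all genes, and none was past the limit. The IFIT genes, antiviral RNA-binding proteins, differed among themselves, with Ifit1bl1 at -0.53, Ifit3b at -0.50, Ifit3 at -0.38, Ifit2 at -0.37 and Ifit1 at -0.12. Of 15 interferon-γ type GTPases and chemokines, 13 were lower and 2 were past the limit. Cxcl9, a T cell attractant, had 127 UMIs in 8 WT-labelled cells and 9 UMIs in 3 cKO-labelled cells, so its log2 ratio of -3.40 rests on few cells. Cxcl10, of the same family, was at 27.1 and 12.5 CPM (log2 ratio -1.11 [-1.33, -0.90]) over 156 and 64 barcodes.

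Of 17 MHC class I genes, 14 were lower, with a median of -0.11, and 2 were past the limit. These were the nonclassical genes H2-Q6, with 362 and 114 UMIs (log2 ratio -1.37), and H2-Q7, at 64.2 and 31.7 CPM (log2 ratio -1.02), and with equal class weights they were at -0.91 and -0.66. H2-Q genes are near-identical copies, so the split of reads among them is uncertain. Of 7 MHC class II genes, 7 were lower, with a median of -0.04. Over all genes, 37.9% lay below 0. Within the unnamed cluster led by MHC class II genes (below), 5 of 6 of them were higher, with a median of 0.14. In nonclassical monocyte-like cells 3 of 5 were higher (median 0.09), and in classical ones 2 of 3 (median 0.08). In B cell-like cells 4 of 4 were lower.

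Genes of cell division were among the few on the higher side past the limit. Of 18 measured proliferation genes, 13 were higher, with a median of 0.17, and 2 were past the limit, where 62.1% of all genes lay above 0. Birc5, the mitotic protein survivin, had 103 UMIs in 52 WT-labelled cells and 201 UMIs in 80 cKO-labelled cells (log2 ratio 1.25 [0.91, 1.62]). Cdca3, which triggers mitotic entry, had 124 and 224 UMIs (log2 ratio 1.14). The cyclin gene Ccnb2 was at 0.74 and the ubiquitin-conjugating enzyme gene Ube2c at 0.69. The replication genes were not higher as a set, since Mcm6 was at -0.36, Mcm5 at -0.23 and Pcna at -0.11, and Top2a was at -0.53, or -0.20 without the top barcodes. Outside the list, the mitotic genes Cenpe (1.29), Bub1b (1.21) and Cdkn3 (1.01) were past the limit as well, Cdkn3 not with equal class weights.

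Wfdc17, a secreted antiprotease-type protein of activated myeloid cells, was below the limit but abundant. It stood at 1159 CPM [1145, 1172] in WT-labelled and 1849 [1830, 1867] in cKO-labelled cells, a log2 ratio of 0.67 [0.65, 0.70]. Saa3, an acute-phase serum amyloid gene, had 40 and 120 UMIs (log2 ratio 1.85), of which 71 came from 1 cKO-labelled barcode, and its ratio was 0.80 without the top barcodes. Nnmt, a methyltransferase of nicotinamide, had 36 and 83 UMIs (log2 ratio 1.47 [0.92, 2.11]).

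The other m6A genes were nearly even. Of the 4 other YTH domain readers, Ythdf1 was at 0.02, Ythdf3 at 0.05, Ythdc2 at 0.17 and Ythdc1 at -0.17. The 11 m6A writers and erasers ran from -0.25 (Rbm15b) to 0.16 (Mettl16), with a median of 0.09. The 25 genes of the CCR4-NOT deadenylase and of decapping had a median of -0.01 and none past the limit. The medians of these lists lay within the quartiles of all genes.

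Among the negative regulators of NF-κB that the study followed, chosen on tumor myeloid cells and not on these cells, none of those named here was past the limit. Tnfaip8l2, an immune checkpoint protein of the TNFAIP8 family, was at 195 and 246 CPM (log2 ratio 0.33 [0.28, 0.39]). Socs3, a cytokine signalling inhibitor, was at 0.04, Smpdl3b at 0.04 and Metrnl at -0.14. Of the chemokine genes the study followed, Ccr2, the receptor that brings monocytes out of the marrow, was at 0.33 with 513 and 644 CPM. Its ligand Ccl2 was at -0.30 with 64.0 and 52.1. Ccl5, which NK and T cells make in quantity, was at -0.95 with 333 and 172, where NK cell-like cells numbered 125 and 47 (below). The median of these 3 chemokine genes was -0.30, and 0.11 with equal class weights.

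**Figure D3:**
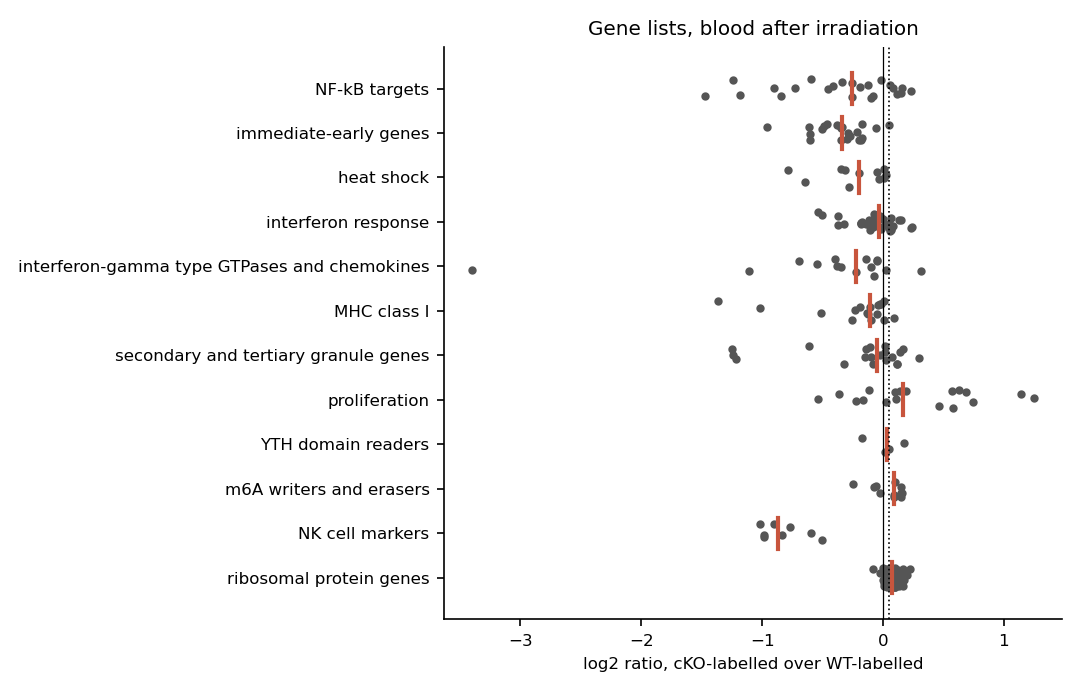
Log2 ratio of each measured member (grey points) of 12 gene lists, with the list's median as a red bar, 0 as a solid line and the median of all genes (0.05) as a dotted line. Immediate-early genes lie to the left of 0 in 21 of 22 cases and NK cell markers in 8 of 8, while m6A readers and writers lie near it.

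NK and T cell markers were lower as whole lists. Of the NK cell markers, 8 of 8 were lower, with a median of -0.87, and of the T cell markers 5 of 5, with a median of -1.16, while of 6 B cell markers 4 were lower and 2 higher. Gzma, the granzyme A protease of killer cells, was at 308 and 152 CPM (log2 ratio -1.02 [-1.08, -0.96]), over 144 and 77 barcodes. Prf1, the pore-forming perforin, was at -0.98, and Trbc2, a T cell receptor constant region, at -1.83. When class sums were given equal weights in both labels, Gzma was at 0.05 and 1 of 8 NK cell markers was lower, and with the NK cell-like and B cell-like clusters left out 30 genes were past the limit on the lower side in place of 51. In summed cells, fewer cells of a type and less RNA per cell cannot be told apart, and the counts by class below bear on this.

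The labelled cells were mostly neutrophil-like, not monocyte-like, although the sort gate was Ly6Chi. A set of 4 clusters with 9 to 12 of 12 mature neutrophil markers raised (among them Retnlg, S100a8 and Csf3r) held 3606 of 4900 WT-labelled cells (73.6% [72.3, 74.8]) and 2921 of 3936 cKO-labelled cells (74.2% [72.8, 75.6]). Classical monocyte-like cells, led by F13a1, Vcan and Ly6c2, made up 12.2% and 13.5%, a difference of 1.31 percentage points [-0.09, 2.73]. Nonclassical monocyte-like cells made up 7.90% and 8.00%, but the clusters joined in this class were unlike. The larger, led by Ace, Adgre4 and Ear2, held 270 WT-labelled and 259 cKO-labelled cells, with 9 of 12 markers raised. The smaller, led by Eno3, Dusp16 and Gm26917, held 117 and 56 cells, with 5 of 12 markers raised. NK cell-like cells were 125 of the WT-labelled and 47 of the cKO-labelled cells (2.55% and 1.19%), a difference of -1.36 points [-1.92, -0.79]. Immature neutrophil-like cells numbered 17 and 9, and B cell-like cells 17 and 7. A cluster of 255 cells led by MHC class II genes, with 150 and 105 cells, was left unnamed, because 8 of 12 nonclassical monocyte markers were raised in it while a dendritic cell marker, Cd209a, stood among its leading genes. These are cells of 1 pool per genotype, so the intervals do not cover differences between mice.

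Within the mature neutrophil-like cells, 27 of 6368 genes were past the limit (0.424%), 23 of them lower. Cxcl2 was at 3066 CPM in WT-labelled and 1197 in cKO-labelled neutrophil-like cells (log2 ratio -1.36 [-1.39, -1.32]), and the 4 clusters of the class ran from -1.52 to -1.14, so the difference was present in each. At a finer clustering, a cluster of this class with Cxcl2 and Ccrl2 among its leading genes held 850 WT-labelled and 409 cKO-labelled cells. Another, led by Retnlg and Ly6g, held 544 and 704. The part of this mix in the ratios of the class was not tested. Cdkn1a, the cell cycle inhibitor p21, was at 46.5 and 16.5 (log2 ratio -1.49 [-1.79, -1.21]). Rgs1, a regulator of chemokine receptor signalling, was at -1.67, and Zfand2a, a heat- and arsenite-induced gene, at -1.42. Wfdc17 was at 1858 and 3378 CPM (log2 ratio 0.86 [0.84, 0.89]). Of the NF-κB targets, 18 of 23 were lower with a median of -0.31, against a median of 0.00 over all genes of the class. Heat shock genes were lower in 8 of 8 cases, and interferon response genes in 27 of 34, with a median of -0.14. Ribosomal protein genes were lower in 75 of 84 cases here (median -0.12). They were higher in 76 of 83 cases in classical monocyte-like cells, with a median of 0.05 against 0.05 over all genes of that class. In nonclassical monocyte-like cells 82 of 84 were higher, with a median of 0.10 against 0.06 over all genes of that class. Over all cells 82 of 84 were higher (median 0.07 against 0.05 over all genes), or 59 when the labels were scaled by TMM factors.

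Within the classical monocyte-like cells, 25 of 7921 genes were past the limit (0.316%), 15 of them lower. Cxcl2 was at 113 and 19.4 CPM (log2 ratio -2.53 [-2.81, -2.28]). Osm, the cytokine oncostatin M, was at 61.0 and 25.5 (log2 ratio -1.26), and Cxcl10 at 50.9 and 18.0 (log2 ratio -1.49). The proliferation genes were found here, with 11 of 15 higher and a median of 0.64, and Birc5 was at 10.8 and 25.7 CPM (log2 ratio 1.25 [0.88, 1.65]). Immediate-early genes were lower in 18 of 19 cases with a median of -0.35. Wfdc21, a neutrophil gene of the same family as Wfdc17, was at 9.33 and 28.2 CPM (log2 ratio 1.58).

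Within the nonclassical monocyte-like cells, 52 of 6760 genes were past the limit (0.769%), 41 of them lower. Markers of mature neutrophils were among these, since 12 of 12 were lower with a median of -1.20 and 9 past the limit. S100a9, an abundant neutrophil alarmin, was at 7199 CPM in WT-labelled and 3125 in cKO-labelled cells of this class, and Retnlg, a neutrophil resistin-like gene, at 893 and 244. The smaller cluster of the class, with 117 WT-labelled and 56 cKO-labelled cells, had more RNA of neutrophil-rich genes. Its WT-labelled cells held 2285 CPM of Il1b, against 262 in the larger cluster. The part of this cluster in the ratios of the class was not tested. Cxcl2 (log2 ratio -2.40) and Ptgs2, the prostaglandin-forming enzyme COX-2 (log2 ratio -2.09), were lower in the same cells (Cxcl2 at -2.24 and -1.66 in the 2 clusters of the class), and the part of neutrophil RNA in those ratios was not tested. With WT-labelled cells held to the same 4-fold hashtag margin, 33 genes were past the limit, and Cxcl2 was at -2.31 and S100a9 at -0.84. Tnfaip3 was at -1.38 and at -1.36 with that margin. Saa3 had 14 and 97 UMIs in this class.

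Of 5375 genes measured in all 3 myeloid classes, 5 were past the limit on the lower side in each. These were Lyz2, Cxcl2, Tnfaip3, Ccrl2 and Thbs1, and on the higher side Ythdf2 was the 1 such gene. Tnfaip3 was at -1.07 in mature neutrophil-like, -1.30 in classical and -1.38 in nonclassical monocyte-like cells. Ccrl2 was at -1.01, -1.16 and -1.35, and Thbs1 at -1.23, -1.22 and -1.30, and cKO-labelled cells were lower in each class. By cluster, Ccrl2 ran from -1.04 to -0.25 in the 4 mature neutrophil-like clusters and was at -1.52 and -0.57 in the 2 nonclassical ones, where Thbs1 was at -1.43 and -0.60.

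**Figure D4:**
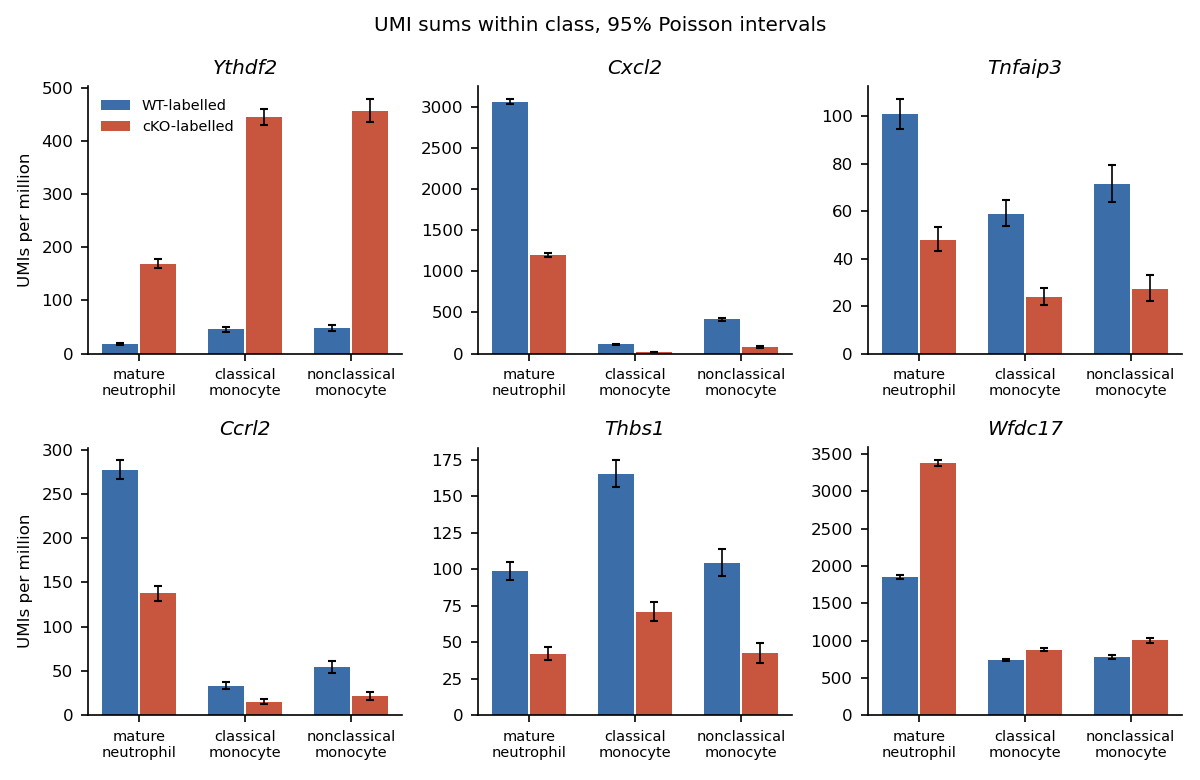
CPM of 6 genes in WT-labelled (blue) and cKO-labelled (red) cells of 3 classes, with 95% Poisson intervals that cover counting error only and no replicates. Ythdf2 and Wfdc17 are higher and Cxcl2, Tnfaip3, Ccrl2 and Thbs1 lower in cKO-labelled cells of each class.

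Blood of mice whose tumors were not irradiated was labelled in the same way, with 4014 cKO-labelled and 5101 WT-labelled cells, and is given beside the irradiated blood. There 207 of 9775 genes were past the limit (2.12%), 62 higher and 145 lower. The label genes went the same way, with Ythdf2 at 3.15 and Lyz2 at -6.56. Of the 68 genes past the limit after irradiation, 57 had at least 100 UMIs in control blood, and 43 of these had the same sign there, 29 of them past the limit. Over all 9607 genes measured in both bloods, 62.2% had the same sign. Cxcl2 was at 2112 and 942 CPM in control blood (log2 ratio -1.16), Ccrl2 at -1.12, Thbs1 at -1.48 and Tnfaip3 at -0.74. Nfkbia was at 711 and 697 there (log2 ratio -0.03 [-0.06, 0.01]), where it had been at -0.85 after irradiation.

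Granule genes went opposite ways in the 2 bloods. Ngp, Ltf and Camp encode secondary granule proteins made by immature neutrophils (neutrophilic granule protein, lactoferrin and cathelicidin). After irradiation, Ngp was at 278 and 120 CPM (log2 ratio -1.21), and in control blood at 140 and 1122 CPM. Ltf was at -1.25 and 2.71 and Camp at -1.24 and 2.91. With equal class weights all 3 were at -0.30 after irradiation, no longer past the limit. Immature neutrophil-like cells were 17 and 9 after irradiation, and 13 WT-labelled and 69 cKO-labelled in control blood. Control blood also held an unnamed cluster of 74 WT-labelled and 1424 cKO-labelled cells, with the granule genes Lcn2 and Mmp8 and the neutrophil genes Retnlg and Ly6g among its leading genes. Of 20 secondary and tertiary granule genes, 9 were higher after irradiation (median -0.05) and 20 in control blood (median 0.65). Immediate-early genes were lower in both, with medians of -0.34 and -0.58, as were NK cell markers, with medians of -0.87 and -1.59.

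**Figure D5:**
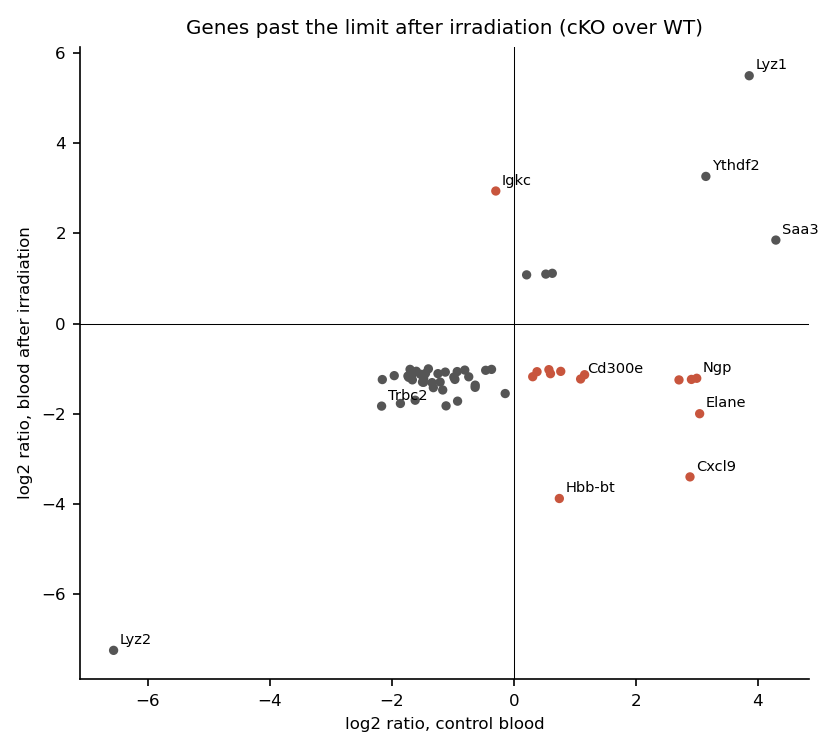
Log2 ratio of cKO-labelled over WT-labelled cells after irradiation against that in control blood, for the 57 genes past the limit after irradiation with at least 100 UMIs in control blood. The 43 grey points have the same sign in both, and the 14 red points, among them Ngp, Elane and Cxcl9, have opposite signs.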

How the data were processed

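Per the labels and methods, the authors ran Cell Ranger (6.0.1 in the processing notes, 4 in the file headers) against mm10 and deposited raw UMI counts per gene and hashtag for every barcode, without normalization. Only barcodes and hashtags were filtered here, as given in the report. UMI counts were summed per label and scaled to CPM. No replicate exists, so no model was fitted. Intervals (95%) were exact Poisson, exact binomial (Clopper-Pearson), or Newcombe for differences of shares, cover counting error only, and the calculation was tested on simulated data. Cells were clustered (igraph 0.11.9, 2000 variable genes, 40 components, 20 neighbours), and a cluster was named from marker lists where at least 3 markers were raised 2-fold and seen in at least 25% of its cells, unless its leading genes went against the name. Doublets between genotypes were left unlabelled only where B0302 was above B0301 and under 4 times it. Mixed droplets outside that range kept a label, and 104 WT-labelled and 13 cKO-labelled barcodes held 100 or more UMIs of the minor hashtag. Scrublet (scanpy 1.11.5) marked 1 of 9237 barcodes by its own threshold and so had not worked, and removing the 6% with the highest scores was used as an alternative. Genes named are the label genes, the 15 highest and 15 lowest ratios past the limit, up to 4 members per list with the largest ratios, the 5 highest and 5 lowest per class, the largest differences from control blood, and genes the study discusses. Other list members were chosen after their values were seen. Gene positions came from GENCODE vM21 (mm10). Members and lists were chosen with earlier results of these data known. The 5 symbols of the lists without a row in the files are not analysed here. One gene of the lists is not reported here.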

Additional observations from a re-analysis of the deposited data

Results flagged for a closer look

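For 7 genes past the limit after irradiation, the label ratio lay past the limit in the opposite direction in control blood. Each condition is 1 library with 1 pool per genotype, so the difference between conditions was not tested. The log2 ratio after irradiation minus that in control blood was -2.30 for Snai1, -4.21 for Ngp, -2.33 for Cd300e, -4.15 for Camp, -3.96 for Ltf, -5.05 for Elane and -6.29 for Cxcl9. Counting intervals of these differences left out 0, and the narrowest was that of Ngp [-4.30, -4.13]. Elane rested on 1 barcode after irradiation, with a log2 ratio of 0.67 there without the top barcodes, and Cxcl9 on 8 WT-labelled and 3 cKO-labelled cells. Ngp, Camp and Ltf were at -1.41, -1.62 and -1.47 after irradiation without the top barcodes, and all 3 at -0.30 with equal class weights, where they were no longer past the limit.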

How the results depend on the processing

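The label genes kept their direction under every alternative run. Lyz2 was at -7.34 without barcodes holding 100 or more UMIs of the minor hashtag, -7.33 at a minimum of 2000 UMIs, -7.34 without the top 6% of Scrublet scores, and -6.09 as a mean over barcodes, where Lyz1 was at 4.92. A minimum of 20 UMIs per gene gave 79 genes higher and 188 lower past the limit, and one of 300 gave 8 and 22. Equal class weights gave 22 genes lower, and leaving out NK cell-like and B cell-like clusters gave 30. Under the same alternatives 1 and 2 NK cell markers were lower in place of 8, and as a mean over barcodes 38 ribosomal protein genes were higher in place of 82. The 4-fold margin gave 33 genes past the limit in nonclassical monocyte-like cells in place of 52. Directions turned with equal class weights for Gzma (0.050) and for the medians of NK cell markers (0.11) and the study's chemokines (0.11). They turned without the NK cell-like and B cell-like clusters for the medians of the study's chemokines (0.31), T cell markers (0.041) and B cell markers (0.27), and as a mean over barcodes for erythroid markers (0.14). Without top barcodes they turned for Mpo (0.62), Elane (0.67), Igkc (-0.55) and Igha (-1.08). The single-barcode and lymphoid-cluster alternatives, and Scrublet within classes, were chosen after seeing the data. No paired analysis was possible because each label is 1 pool and no result comes from a test. NF-κB targets were lower in 17 of 23 members under each alternative at the same gene minimum.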

Other observations

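Genes of the p53 response to DNA damage were measured because the mice were irradiated. Summed over all cells they were close to even between the labels, with 10 of 17 higher, where 62.1% of all genes lay above 0. Their median log2 ratio was 0.03 and none was past the limit. The 3 members farthest below 0 were Ddit4, an inhibitor of mTOR signalling (-0.88), the kinase gene Plk2 (-0.75) and Cdkn1a, which encodes p21 (-0.54), while Mdm2, the ubiquitin ligase of p53, was at -0.05 and the apoptosis gene Bax at 0.14. Within classes the list was less even. In mature neutrophil-like cells 8 of 13 were higher, and 1 (Cdkn1a, above) was past the limit on the lower side. In classical monocyte-like cells 8 of 16 were lower, 2 of them past the limit. In nonclassical monocyte-like cells 10 of 13 were lower (median -0.11). Of 13 suppressive and angiogenic factors, 9 were lower, with a median of -0.11, where 37.9% of all genes lay below 0. The member with the largest ratio, Wfdc17, was among the 4 on the higher side, at 0.67. Summed over the list, levels were 2957 CPM in WT-labelled and 3576 in cKO-labelled cells. Cd274, which encodes the checkpoint ligand PD-L1, was at 33.2 and 22.3 CPM (log2 ratio -0.57), and Trem1, an activating receptor of neutrophils and monocytes, at 219 and 151 (log2 ratio -0.54). Il1r2, the decoy receptor of interleukin-1, was at 178 and 112 CPM (log2 ratio -0.67), where 7 of 12 interleukin-1 and inflammasome genes were higher and the median was 0.05.

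Genes of energy metabolism were set beside all genes, of which 62.1% lay above 0, with a median of 0.05. Glycolysis genes were close to this, with 13 of 18 higher (median 0.08). Of 13 mitochondrially encoded genes, 12 were higher (median 0.13), each with a counting interval above 0. Classes differed in these, since 8 of 10 were lower in mature neutrophil-like cells (median -0.11). In classical and nonclassical monocyte-like cells 12 of 13 and 12 of 12 were higher (medians 0.10 and 0.19). Of 13 C-type lectin receptors, 9 were higher, with Cd302 at 0.39, and Cd209a, a dendritic cell and monocyte lectin, was at -0.92 with 23.8 and 12.5 CPM. At a finer clustering, a dendritic cell-like cluster led by Cd209a held 57 WT-labelled and 20 cKO-labelled cells (1.16% and 0.51%). Its part in the Cd209a ratio was not tested.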
